A study of Homo sapiens with 8 samples.

Results

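The core autophagy genes were followed in Jurkat T-cell acute lymphoblastic leukemia cells with and without CBAP. A row of the deposited expression table was taken as a member where its symbol began with ATG and a digit, or where it was one of 20 listed genes that act in the same steps. The table of 13453 genes held 35 members, namely 17 with ATG symbols and 18 of the listed genes. ULK2 and MAP1LC3A were not analysed here. By role, 3 members belong to initiation, 12 to nucleation and membrane supply, 15 to conjugation and 5 are receptors for selective cargo.

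Macroautophagy wraps cytoplasm in a double membrane, the autophagosome, and delivers it to lysosomes for breakdown. The ULK1 kinase complex, which mTORC1 holds in check when nutrients are plentiful, starts the process, and a lipid kinase complex around BECN1 and PIK3C3 marks the membrane on which it proceeds. An enzyme cascade then couples small proteins of the ATG8 family to that membrane, where cargo receptors bind them. The transcript levels described here measure neither the proteins nor the flux through the pathway.

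RNA-seq was performed on 8 libraries, 2 from each of 4 kinds of Jurkat cells, a human T-ALL line. In the shRNA set, sh-Ctrl cells carry a non-targeted lentiviral shRNA and sh-CBAP cells an shRNA against CBAP, and stable cells were selected with puromycin. In the CRISPR set, both kinds of cells derive from CBAP knockout (CBAP-KO) cells made by Cas9 editing and growth of sorted single cells: CBAP-KO cells express GFP, whereas CBAP-reconstituted cells express a CBAP-GFP fusion. Unedited cells are thus not part of the CRISPR set, and which shRNA or which clone was sequenced is not given in the sources used here. The study groups sh-Ctrl and CBAP-reconstituted cells as CBAP-expressing, and sh-CBAP and CBAP-KO cells as CBAP-deficient. No source used here says whether the libraries of a condition came from separate cultures, so p-values measure the spread between libraries, which may be technical.

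Values are FPKM, fragments per kilobase of exon scaled to the mapped fragments of a library, so levels can be set side by side between genes, and sums per library ranged from 362082 to 434742. The targeted gene, listed as TMEM102, was at 4.07 and 4.74 FPKM in sh-Ctrl and 2.69 and 2.89 FPKM in sh-CBAP. Every CRISPR-set library had a listed 0 for it, with CBAP-GFP or without, so it gives no check of those labels. In bulk RNA a lower level in every cell cannot be told apart from loss of the transcript in some of the cells. Of 12 T-lineage markers 11 were in the table and 10 reached 1 FPKM in every library. The exception was CD5, at 0.180 and 0.231 FPKM in CBAP-reconstituted against 27.1 and 27.4 FPKM in CBAP-KO. CD28 was also lower in CBAP-reconstituted, at 2.93 and 2.59 FPKM, than in CBAP-KO, at 35.5 and 37.5 FPKM. No myeloid or erythroid marker was in the table, and the summed B-cell markers, of which CD79A alone was in the table, ranged from 0.732 FPKM in a CBAP-reconstituted library to 22.5 FPKM in an sh-Ctrl library. The CBAP-reconstituted libraries therefore stood apart in more than their CBAP status, and the part of this in the results of the CRISPR set was not tested.

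In sh-Ctrl cells the most abundant members were GABARAP, with a mean of 131 FPKM, GABARAPL2 with 98.1 FPKM and ATG3 with 60.0 FPKM. These 3 genes held the same order in the other 3 conditions. WIPI1 with 1.33 FPKM, ATG9B with 1.94 FPKM and OPTN with 2.99 FPKM were the least abundant members above 0 in sh-Ctrl. All 35 members passed the filter of a mean of at least 1 FPKM over the libraries. ATG9A, listed at 0 in 5 libraries, passed only through both CBAP-KO libraries and sh-CBAP replicate 1. Its CRISPR call therefore rests on libraries that let it pass. Replicates differed by a median of 0.052 to 0.15 on the log2 scale over the members, and the widest spread was that of the sh-CBAP libraries. Over all genes tested the median was 0.117 in sh-Ctrl and 0.18 in sh-CBAP, against 0.044 in CBAP-reconstituted and 0.060 in CBAP-KO.

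Changes were tested on log2(FPKM + 1) with limma and Benjamini-Hochberg adjustment over 11427 genes, and a gene was called at an adjusted p under 0.05. In the shRNA set 7 of 35 members (20%) were called, 3 higher and 4 lower in sh-CBAP. Over all genes tested 12.3% were called, 3.62% higher and 8.7% lower. The called members were GABARAPL1, MAP1LC3B and OPTN, which rose, and ATG7, ATG10, GABARAP and GABARAPL2, which fell. In the CRISPR set 19 members (54.3%) were called, 11 higher and 8 lower in CBAP-KO, beside 49.9% of all genes tested, 23.9% higher and 25.9% lower. The members' share was thus close to the share over all genes in the CRISPR set, and without ATG9A it was 52.9% (18 of 34). For sh-CBAP against sh-Ctrl the members had a median log2 change of -0.026, where all genes tested had -0.060. For CBAP-KO against CBAP-reconstituted their median was 0.052, where all genes had 0. With libraries rescaled the shRNA calls split 4 higher and 1 lower, and the median became 0.026 by quantile normalization and 0.041 by median ratio. By quantile normalization the CRISPR median became -0.037. With each set fitted alone on its 4 libraries, no shRNA-set call was left, although 7 members had an unadjusted p under 0.05. The CRISPR set had 25 calls when fitted in the same way.

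**Figure D1:**
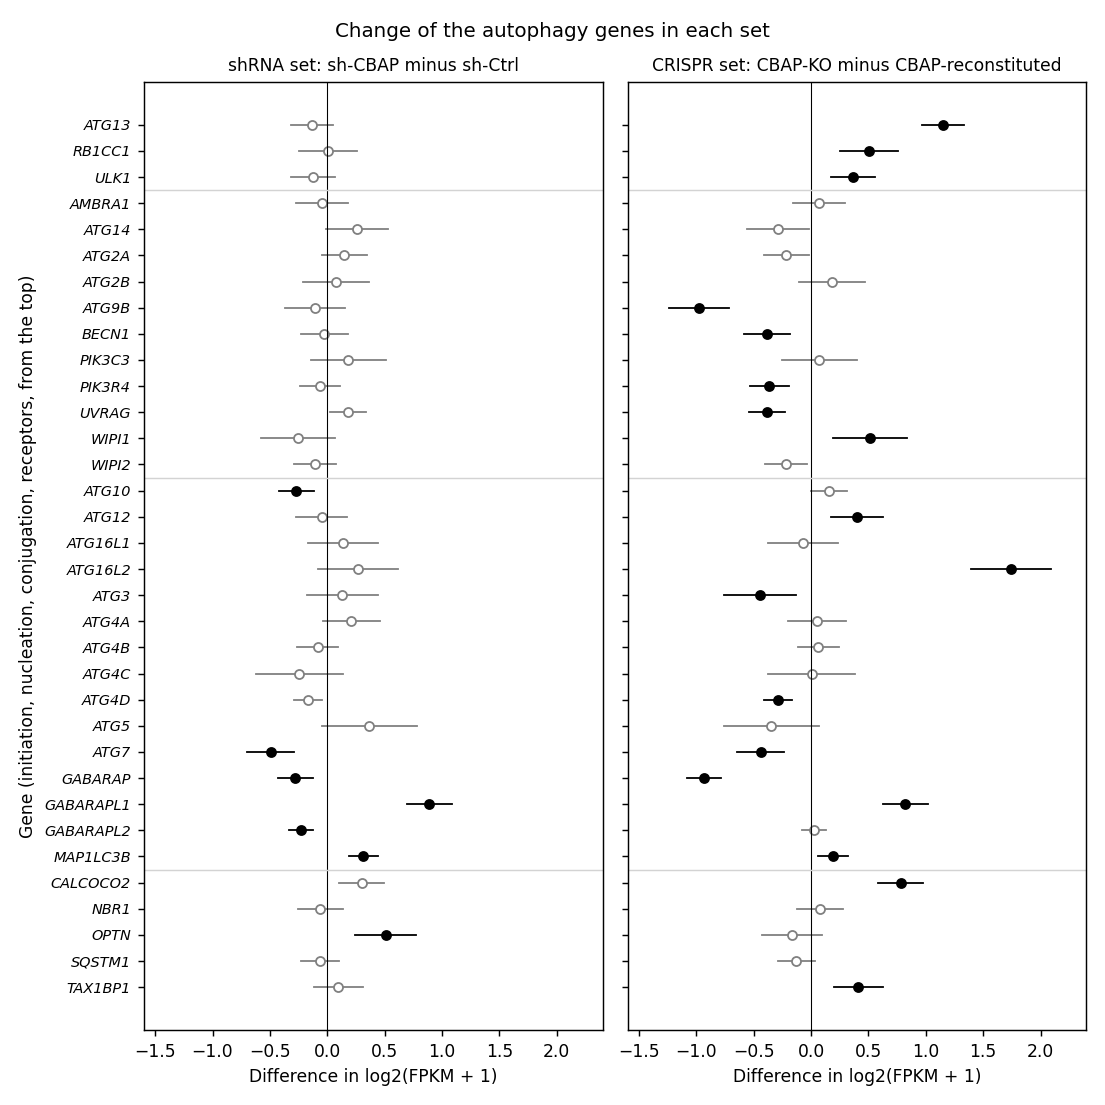
Difference in log2(FPKM + 1) for 34 members, with ATG9A left out because it is listed at 0 in 5 libraries; the left panel shows sh-CBAP minus sh-Ctrl and the right panel CBAP-KO minus CBAP-reconstituted. Points are limma estimates, bars are 95% confidence intervals, filled points have an adjusted p under 0.05, and grey lines separate the stages. The 3 initiation genes lie near 0 on the left and between 0.36 and 1.15 on the right, while GABARAPL1 lies at 0.89 and 0.82.

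In all, 4 members were called in the same direction in both sets, all from the conjugation stage. GABARAPL1 and MAP1LC3B rose in both, beside 1.72% of all genes tested, and ATG7 and GABARAP fell in both, beside 4.03% of all genes. No member was called in opposite directions, as 2.49% of all genes were. The sets share no library, but both changes were tested in 1 fit that pooled the spread of all libraries. With each set fitted alone, none of these 4 was called in the shRNA set. Of the other members 3 were called in the shRNA set alone, 15 in the CRISPR set alone and 13 in neither. These counts have no share over all genes tested beside them, so they describe the members only. For scale, the CRISPR contrast called 49.9% of all genes tested, whether or not the shRNA contrast called them too.

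GABARAPL1, an ATG8 protein that takes part in autophagosome maturation, was at 13.8 and 15.3 FPKM in sh-Ctrl and at 28.6 and 27.0 FPKM in sh-CBAP. It was at 7.23 and 6.60 FPKM in CBAP-reconstituted and at 13.2 and 12.8 FPKM in CBAP-KO. Each CBAP-deficient pair lay above its own control pair, but CBAP-KO lay below sh-Ctrl. The ratio of means was 1.91 with the shRNA and 1.88 with the knockout. On the log2(FPKM + 1) scale the rise was 0.89 (SE 0.079, limma adjusted p = 0.0044) in the shRNA set and 0.82 (SE 0.079, limma adjusted p = 0.00070) in the CRISPR set. The difference between the sets was 0.07, with a 95% confidence interval from -0.21 to 0.34. The CRISPR call held under all 16 alternatives and the shRNA call under 14, being lost with a replicate block and with each set fitted alone.

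MAP1LC3B, or LC3B, is the ATG8 protein whose lipidated form is widely used to mark autophagosomes. It was at 27.9 and 27.4 FPKM in sh-Ctrl, 33.7 and 35.6 FPKM in sh-CBAP, 30.6 and 31.6 FPKM in CBAP-reconstituted and 35.2 and 36.0 FPKM in CBAP-KO. All 4 CBAP-deficient libraries lay above all 4 CBAP-expressing ones. The rise was small, 0.32 on the log2(FPKM + 1) scale (limma adjusted p = 0.021) in the shRNA set and 0.19 (limma adjusted p = 0.026) in the CRISPR set. The calls were lost under 8 and 5 of 16 alternatives, which in both cases included the replicate block and each CRISPR-set library left out. MAP1LC3B shares up to 23.8% of its transcript with the near copy MAP1LC3B2, at up to 97.9% identity, so how fragments were divided between them is uncertain.

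GABARAP, the most abundant ATG8 transcript, was at 132 and 130 FPKM in sh-Ctrl and 111 and 105 FPKM in sh-CBAP. It was at 236 and 218 FPKM in CBAP-reconstituted and 115 and 121 FPKM in CBAP-KO. The CBAP-reconstituted libraries stood above the other 6, and CBAP-KO lay between sh-Ctrl and sh-CBAP. GABARAP fell by 17.6% of the control mean with the shRNA. With the knockout it fell by 47.8%, a log2 change of -0.93 (SE 0.061, limma adjusted p = 0.00020). The shRNA change of -0.28 (limma adjusted p = 0.042) was no longer called after either rescaling of the libraries. The changes differed by 0.66 between the sets (limma adjusted p = 0.0041). GABARAP shares 691 exon bases with the gene ENSG00000262526 on the same strand and 52.5% of its transcript at 100% identity, so how fragments were divided between them is uncertain. GABARAP lies 193 kb from TMEM102 on chromosome 17 (GRCh37), and whether this nearness to the edited gene bears on its values was not tested.

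ATG7 is the E1-like enzyme that activates both ATG12 and the ATG8 proteins. It was at 5.13 and 4.72 FPKM in sh-Ctrl, 3.27 and 3.14 FPKM in sh-CBAP, 4.81 and 4.29 FPKM in CBAP-reconstituted and 3.01 and 3.17 FPKM in CBAP-KO. Here the 2 kinds of control cells lay close together, and so did the 2 kinds of CBAP-deficient cells, with no overlap between them. ATG7 fell by 35.0% in the shRNA set (log2 change -0.49, limma adjusted p = 0.021) and by 32.1% in the CRISPR set (log2 change -0.44, limma adjusted p = 0.0073). The shRNA call was lost under 7 of 16 alternatives and the CRISPR call under 1. Its exons share 1597 bases with those of VGLL4 on the opposite strand, and whether counting used strand is not stated. VGLL4 was more abundant, at 20.1 to 33.3 FPKM, and its part in the ATG7 values was not tested. VGLL4 itself had log2 changes of -0.12 and 0.07, with adjusted p of 0.18 and 0.28 by limma.

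The promoters of the 4 genes called in both sets are shown because each kept its direction between the sets, 2 being higher and 2 lower. Each runs from 250 bases before to 50 bases after the annotated start (RefSeq, GRCh38.p14, a later build than that of the expression table): GABARAPL1 at chr12:10212627-10212926 on the plus strand, MAP1LC3B at chr16:87392086-87392385 on the plus strand, GABARAP at chr17:7242400-7242699 on the minus strand and ATG7 at chr3:11272147-11272446 on the plus strand. Capitals mark matches to any of the motifs searched.
GABARAPL1: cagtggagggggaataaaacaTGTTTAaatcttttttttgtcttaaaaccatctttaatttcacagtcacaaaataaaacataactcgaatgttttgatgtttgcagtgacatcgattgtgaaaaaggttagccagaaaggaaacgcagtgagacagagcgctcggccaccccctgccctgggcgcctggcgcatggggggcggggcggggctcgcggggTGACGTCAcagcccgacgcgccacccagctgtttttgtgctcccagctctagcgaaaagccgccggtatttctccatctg
MAP1LC3B: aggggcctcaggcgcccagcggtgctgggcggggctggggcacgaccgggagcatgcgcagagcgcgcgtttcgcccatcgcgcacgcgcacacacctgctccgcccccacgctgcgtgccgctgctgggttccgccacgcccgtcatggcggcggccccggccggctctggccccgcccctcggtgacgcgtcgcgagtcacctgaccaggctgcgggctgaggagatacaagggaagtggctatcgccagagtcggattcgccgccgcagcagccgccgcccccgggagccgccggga
GABARAP: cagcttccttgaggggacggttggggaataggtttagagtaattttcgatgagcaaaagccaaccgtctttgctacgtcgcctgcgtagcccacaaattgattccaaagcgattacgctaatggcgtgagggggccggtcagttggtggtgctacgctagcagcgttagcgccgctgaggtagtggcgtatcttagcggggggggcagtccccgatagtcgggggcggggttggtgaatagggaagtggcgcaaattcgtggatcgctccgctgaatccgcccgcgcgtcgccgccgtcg
ATG7: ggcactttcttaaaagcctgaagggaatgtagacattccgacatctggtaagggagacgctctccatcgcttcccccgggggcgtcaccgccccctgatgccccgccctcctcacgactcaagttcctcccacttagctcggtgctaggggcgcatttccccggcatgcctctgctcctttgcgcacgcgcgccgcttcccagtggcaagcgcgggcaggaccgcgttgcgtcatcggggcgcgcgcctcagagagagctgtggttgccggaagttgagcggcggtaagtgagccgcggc
In all, 5 motifs were searched on both strands in the 32 member promoters that matched and in 35116 promoters in all. The E-box core CACGTG, which TFEB and TFE3 can bind, was in 7.26% of all promoters and in those of ATG14 and ATG3. Its longer form TCACGTGA, which contains the core, was in 0.980% of all and in that of ATG3. The forkhead core TGTTTAC was in 3.42% of all and in that of CALCOCO2, and the shorter TGTTTA, which it contains, was in 12.3% of all and in those of AMBRA1, CALCOCO2, GABARAPL1 and WIPI2. The cyclic AMP response element TGACGTCA was in 1.85% of all and, among members, in that of GABARAPL1 alone, 30 bases before the start. This last motif was added after the GABARAPL1 promoter had been read, so its presence there is a description of what was seen. Except for GABARAPL1, none of the 4 promoters shown held any of these letters.

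**Figure D2:**
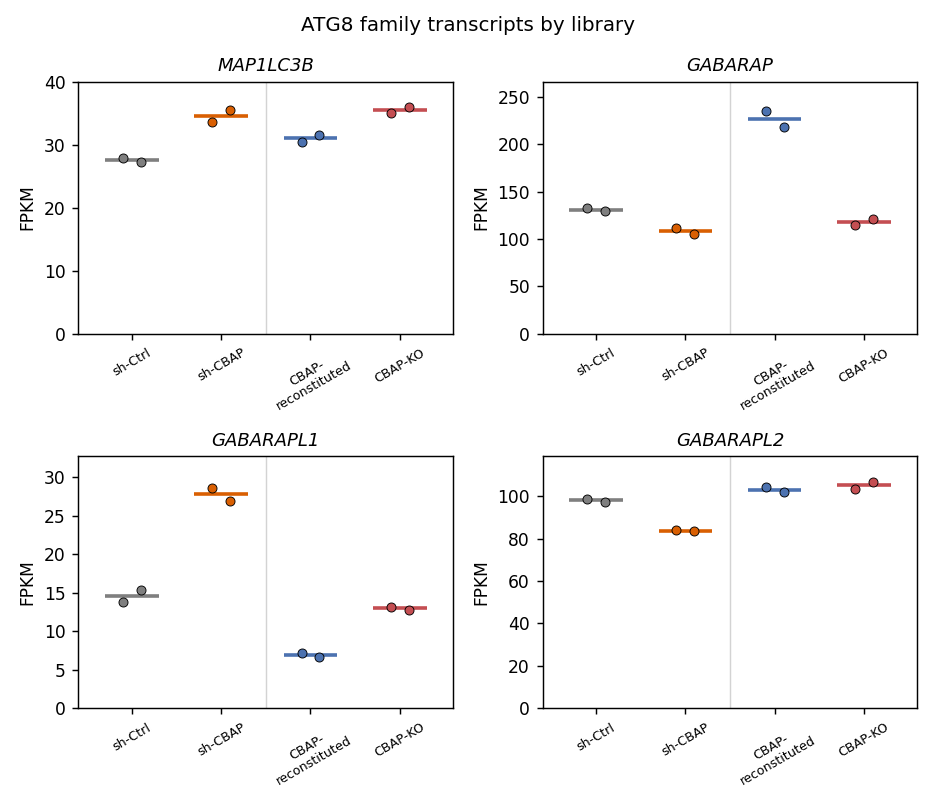
FPKM of the ATG8 family genes in the 8 libraries. Points are libraries, horizontal bars are the means of 2 libraries, and the vertical line separates the shRNA set from the CRISPR set. GABARAPL1 and MAP1LC3B are higher in the CBAP-deficient cells of each set, and GABARAP is highest in the CBAP-reconstituted libraries, at 236 and 218 FPKM.

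The last ATG8 gene measured, GABARAPL2, was at 98.7 and 97.5 FPKM in sh-Ctrl and 84.0 and 83.5 FPKM in sh-CBAP. In the CRISPR set it was at 104 and 102 FPKM in CBAP-reconstituted and 103 and 107 FPKM in CBAP-KO, so that those groups overlapped. Its shRNA change was -0.23 (limma adjusted p = 0.028) and was not called after either rescaling. Of the summed FPKM of the ATG8 genes, GABARAPL1 made up 5.04% and 5.68% in sh-Ctrl and 11.1% and 10.7% in sh-CBAP. Its share was 1.91% and 1.84% in CBAP-reconstituted and 4.95% and 4.60% in CBAP-KO. GABARAP remained the largest share in every library, from 41.8% in an sh-CBAP library to 62.4% in a CBAP-reconstituted one.

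The 3 initiation members rose in the CRISPR set, whereas ATG101 of the same complex, listed as C12orf44 and so not a member, fell. None of the 3 was called in the shRNA set, where 12.3% of all genes were. The 3 CRISPR calls stand beside 23.9% of all genes called higher. ATG13, the adaptor that links the ULK1 kinase to its scaffold, was at 17.9 and 18.6 FPKM in CBAP-reconstituted and at 41.9 and 41.7 FPKM in CBAP-KO. It was at 19.9 and 17.9 FPKM in sh-Ctrl and at 18.0 and 16.4 FPKM in sh-CBAP. Both CBAP-KO libraries therefore lay above the other 6, which overlapped, and the ratio of means was 2.29. The log2 change was 1.15 (SE 0.074, limma adjusted p = 0.00019) in the CRISPR set and -0.13 (limma adjusted p = 0.30) in the shRNA set, and the difference between them, -1.28, was called (limma adjusted p = 0.00086). The CRISPR call held under all 16 alternatives. HARBI1, which shares 329 exon bases with ATG13 on the opposite strand, changed by 0.13 (limma adjusted p = 0.42).

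RB1CC1, the scaffold FIP200, was at 10.3 and 10.1 FPKM in CBAP-reconstituted and 14.4 and 15.4 FPKM in CBAP-KO (log2 change 0.50, limma adjusted p = 0.010). In the shRNA set it was at 11.8 and 9.70 FPKM in sh-Ctrl and 10.2 and 11.3 FPKM in sh-CBAP, and these overlapped. ULK1, the kinase itself, was at 26.0 and 26.3 FPKM in CBAP-reconstituted and 34.8 and 33.0 FPKM in CBAP-KO (log2 change 0.36, limma adjusted p = 0.012). It was at 21.5 and 20.7 FPKM in sh-Ctrl and 17.9 and 20.7 FPKM in sh-CBAP. The CRISPR-set calls of RB1CC1 and ULK1 were each lost under 3 of 16 alternatives, all of which left out a CRISPR-set library. ATG101, the remaining subunit of the complex, is listed under its older symbol C12orf44 and went the other way, from 34.7 and 34.8 FPKM in CBAP-reconstituted to 22.4 and 23.8 FPKM in CBAP-KO (log2 change -0.57, limma adjusted p = 0.0017).

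**Figure D3:**
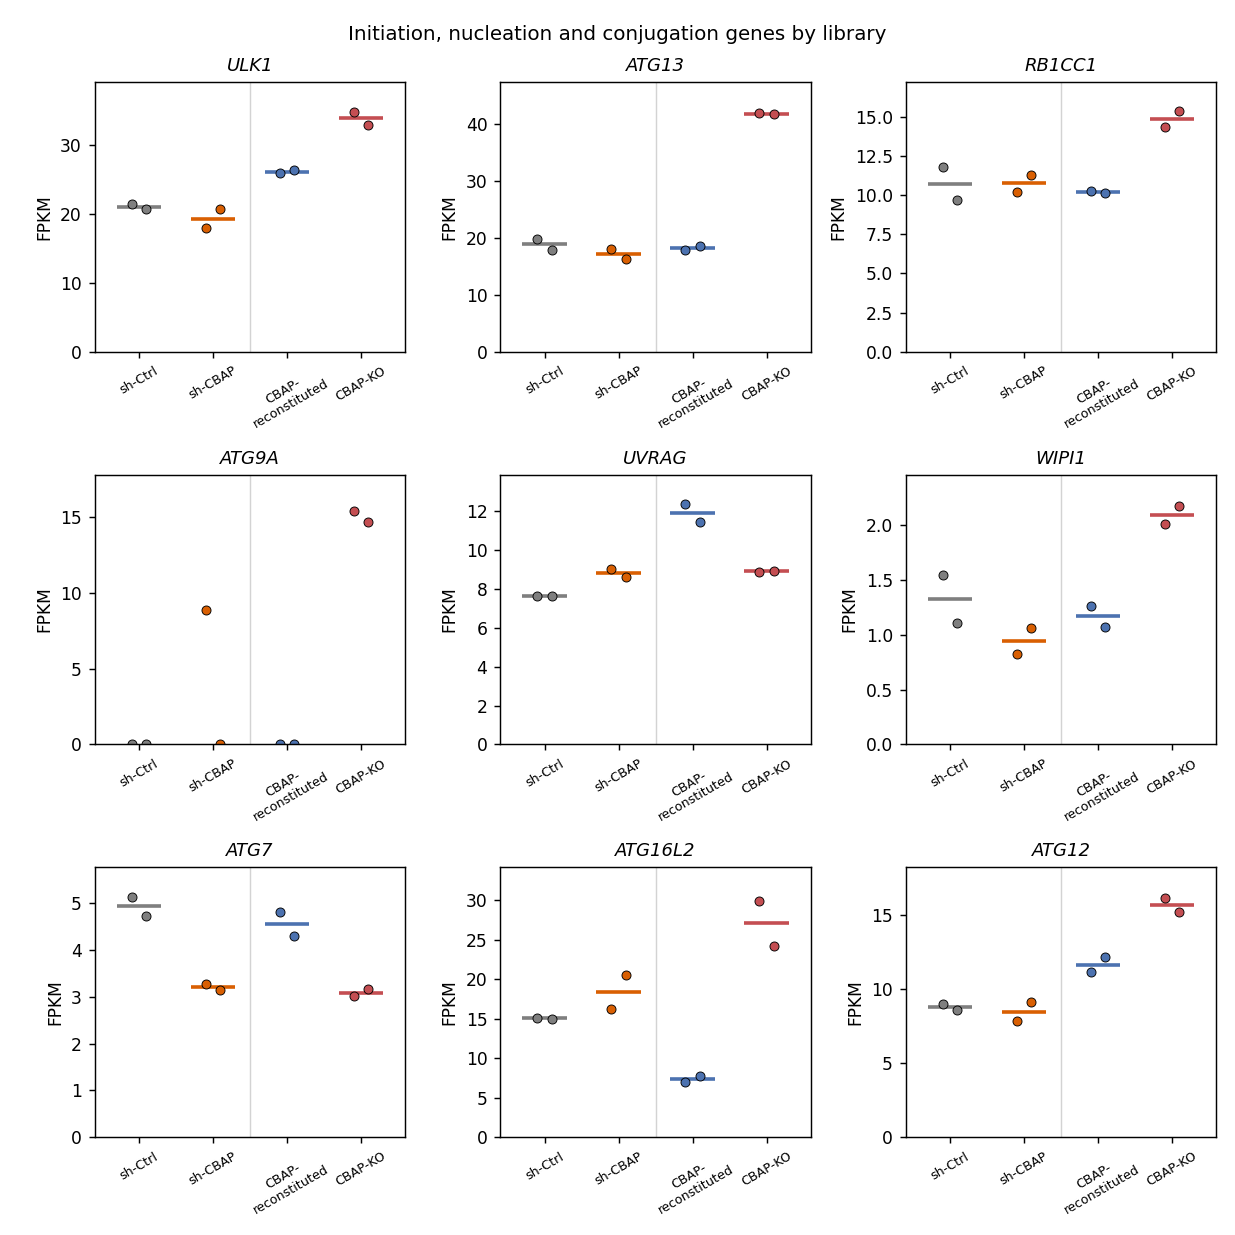
FPKM by library for 9 members of the initiation, nucleation and conjugation stages, with points for libraries and horizontal bars for means of 2 libraries; ATG9A has no mean because of its listed zeros. ATG13 reaches 41.9 and 41.7 FPKM in CBAP-KO and at most 19.9 FPKM elsewhere, while ATG7 is lower in both kinds of CBAP-deficient cells.

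None of the 12 nucleation genes was called in the shRNA set, where 12.3% of all genes tested were. Of the 12, 1 had an unadjusted p under 0.05 there. In the CRISPR set 6 (50%) were called, 2 higher and 4 lower, a share close to the 49.9% of all genes tested. Among those higher was ATG9A, with its listed zeros. ATG9B, a homolog of the scramblase ATG9A, was at 2.55 and 2.30 FPKM in CBAP-reconstituted and 0.709 and 0.766 FPKM in CBAP-KO. It was at 1.94 and 1.95 FPKM in sh-Ctrl and 1.53 and 1.96 FPKM in sh-CBAP, so that CBAP-KO lay below every other library. Its log2 change was -0.98 (limma adjusted p = 0.0010) in the CRISPR set. NOS3, which overlaps it on the opposite strand by 786 exon bases, changed by 0.87 in the other direction (limma adjusted p = 0.0024).

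BECN1, PIK3R4 and UVRAG belong to the lipid kinase complexes, and all 3 fell in the CRISPR set. UVRAG was at 12.4 and 11.4 FPKM in CBAP-reconstituted and 8.87 and 8.92 FPKM in CBAP-KO (log2 change -0.38, limma adjusted p = 0.0048). It was at 7.60 and 7.65 FPKM in sh-Ctrl and 8.998 and 8.60 FPKM in sh-CBAP. The CBAP-reconstituted libraries were thus the high ones, and the change in the shRNA set was upward without being called (0.18, limma adjusted p = 0.12). BECN1 changed by -0.38 (limma adjusted p = 0.012) and PIK3R4 by -0.36 (limma adjusted p = 0.0078). For BECN1 too CBAP-reconstituted was high, with a mean of 47.5 FPKM against 36.2 FPKM in CBAP-KO and 34.7 FPKM in sh-Ctrl. On the opposite strand BECN1 shares 795 exon bases with CNTD1, at most at 0.52 FPKM, and 300 with PSME3. PSME3 changed by -0.34 in the CRISPR set (limma adjusted p = 0.023), and its part in the BECN1 value was not tested. The catalytic subunit PIK3C3 changed by 0.07 (limma adjusted p = 0.69), with a 95% confidence interval from -0.26 to 0.40.

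WIPI1, which binds the lipid that this kinase makes, was low throughout, at 1.27 and 1.07 FPKM in CBAP-reconstituted and 2.01 and 2.17 FPKM in CBAP-KO (log2 change 0.51, limma adjusted p = 0.022), a call lost under 5 of 16 alternatives. In the shRNA set it was at 1.55 and 1.11 FPKM in sh-Ctrl and 0.823 and 1.06 FPKM in sh-CBAP. ARSG, which shares 829 exon bases with WIPI1 on the opposite strand, rose by 1.56 in the CRISPR set (limma adjusted p = 0.00014), and its part in the WIPI1 value was not tested. WIPI2, at 21.5 to 26.1 FPKM in the control cells of both sets, was called in neither set.

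ATG9A, a lipid scramblase in the vesicles that seed the membrane, was listed at 0 in both sh-Ctrl libraries, both CBAP-reconstituted libraries and sh-CBAP replicate 2. It was listed at 8.87 FPKM in sh-CBAP replicate 1 and at 15.4 and 14.7 FPKM in CBAP-KO. The sh-CBAP replicates thus disagreed outright, and 710 genes of the table were at 0 in a library while at 5 FPKM or more in another. A listed 0 may be a failed estimate, so no fold is given. ATG9A also shares 1833 exon bases with the gene ENSG00000284820 on the same strand. Without ATG9A the CRISPR set had 10 members higher and 8 lower of 34.

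In the conjugation stage 6 of 15 members were called in the shRNA set, 2 higher and 4 lower, which is 40% beside 12.3% of all genes tested. With the knockout 8 (53.3%) were called, 4 higher and 4 lower, which is close to the 49.9% of all genes. ATG16L2, a homolog of the ATG16L1 protein that directs ATG8 coupling to the membrane, had the greatest log2 change among the members other than ATG9A in the CRISPR set. It was at 7.01 and 7.71 FPKM in CBAP-reconstituted and 29.9 and 24.3 FPKM in CBAP-KO, a ratio of 3.68. In sh-Ctrl it was at 15.1 and 14.9 FPKM and in sh-CBAP at 16.3 and 20.6 FPKM. The CBAP-reconstituted libraries were the lowest and the CBAP-KO libraries the highest, with the shRNA set between them. The log2 change was 1.74 (SE 0.14, limma adjusted p = 0.00042) in the CRISPR set and 0.27 (limma adjusted p = 0.27) in the shRNA set. FCHSD2, which shares 680 exon bases with ATG16L2 on the opposite strand, rose by 0.58 (limma adjusted p = 0.0017). ATG16L1 changed by -0.07 in the CRISPR set (limma adjusted p = 0.69).

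ATG12, the ubiquitin-like protein coupled to ATG5, was at 11.1 and 12.2 FPKM in CBAP-reconstituted and 16.2 and 15.2 FPKM in CBAP-KO (log2 change 0.40, limma adjusted p = 0.014). It was at 9.02 and 8.58 FPKM in sh-Ctrl and 7.84 and 9.14 FPKM in sh-CBAP, which overlapped. ATG3, the E2-like enzyme for the ATG8 proteins, was at 70.9 and 75.2 FPKM in CBAP-reconstituted and 54.9 and 52.0 FPKM in CBAP-KO (log2 change -0.44, limma adjusted p = 0.031). That call was lost under 8 of 16 alternatives, quantile normalization and the replicate block among them. ATG3 was at 60.8 and 59.2 FPKM in sh-Ctrl and 57.4 and 75.3 FPKM in sh-CBAP, and the groups overlapped. ATG10, the E2-like enzyme for ATG12, was at 11.4 and 11.6 FPKM in sh-Ctrl and 9.59 and 9.11 FPKM in sh-CBAP. Its shRNA change of -0.27 (limma adjusted p = 0.047) was kept under 4 of 16 alternatives, and it was at 10.5 and 11.3 FPKM in CBAP-reconstituted and 12.4 and 12 FPKM in CBAP-KO. Of the ATG4 proteases, which trim ATG8 proteins, ATG4D was at 17.5 and 18.1 FPKM in sh-Ctrl, 15.6 and 15.8 FPKM in sh-CBAP, 22.3 and 21.6 FPKM in CBAP-reconstituted and 17.7 and 17.9 FPKM in CBAP-KO. ATG4D fell in the CRISPR set (log2 change -0.29, limma adjusted p = 0.0058), whereas ATG4A, ATG4B and ATG4C were called in neither set. On the opposite strand ATG10 shares 374 exon bases with RPS23, at 75.1 to 99.2 FPKM. ATG12 shares 185 with AP3S1, ATG3 124 with SLC35A5 and ATG4D 334 with KRI1. In the CRISPR set the log2 change was -0.35 for RPS23, -0.48 for AP3S1, 0.09 for SLC35A5 and 0.38 for KRI1. Their part in the values of these members was not tested.

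The members called in neither set spanned all stages but initiation. ATG14, which directs the lipid kinase to the site of autophagosome formation, ranged from 3.44 to 5.21 FPKM over the libraries, and AMBRA1, a regulator of BECN1, from 9.02 to 11.1 FPKM. The lipid transfer proteins ATG2A and ATG2B ranged from 5.32 to 6.57 FPKM and from 4.97 to 6.81 FPKM. ATG5 ranged from 14.0 to 23.0 FPKM, with log2 changes of 0.37 (limma adjusted p = 0.21) and -0.35 (limma adjusted p = 0.14).

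Among the receptors, CALCOCO2, or NDP52, which brings bacteria and damaged mitochondria to the autophagosome, had the highest change in the CRISPR set. It was at 24.7 and 25.8 FPKM in CBAP-reconstituted and 43.0 and 45.2 FPKM in CBAP-KO, and at 20.4 and 20.5 FPKM in sh-Ctrl and 23.6 and 27.3 FPKM in sh-CBAP. In both sets the CBAP-deficient libraries lay above their controls. The log2 change was 0.78 (SE 0.078, limma adjusted p = 0.00082) in the CRISPR set and 0.30 (limma adjusted p = 0.063) in the shRNA set, and the difference of -0.48 was called (limma adjusted p = 0.023).

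TAX1BP1, a related receptor, rose from 31.2 and 33.2 FPKM in CBAP-reconstituted to 43.0 and 43.4 FPKM in CBAP-KO (log2 change 0.41, limma adjusted p = 0.011), and was at 27.6 and 23.7 FPKM in sh-Ctrl and 26.3 and 28.5 FPKM in sh-CBAP. OPTN, which binds ubiquitinated cargo, was at 3.35 and 2.63 FPKM in sh-Ctrl and 4.49 and 4.82 FPKM in sh-CBAP (log2 change 0.51, limma adjusted p = 0.036), a call lost under 8 of 16 alternatives. OPTN was at 1.99 and 2.02 FPKM in CBAP-reconstituted and 1.71 and 1.64 FPKM in CBAP-KO (log2 change -0.17, limma adjusted p = 0.23). CCDC3, which shares 147 exon bases with OPTN on the opposite strand, had log2 changes of -0.62 and -2.14.

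SQSTM1, or p62, the receptor that is itself degraded by autophagy, was at 23.5 and 24.3 FPKM in sh-Ctrl, 23.1 and 22.5 FPKM in sh-CBAP, 28.8 and 30.7 FPKM in CBAP-reconstituted and 25.9 and 28.4 FPKM in CBAP-KO. It was called in neither set, with 95% confidence intervals from -0.23 to 0.10 and from -0.29 to 0.03. On the opposite strand SQSTM1 shares 1582 exon bases with MRNIP, and 55.9% of its transcript at up to 100% identity. With MGAT4B it shares 105 exon bases, and the part of these genes in the SQSTM1 values was not tested. NBR1 was at 13.0 and 11.2 FPKM in sh-Ctrl, 11.8 and 11.3 FPKM in sh-CBAP, 14.1 and 13.7 FPKM in CBAP-reconstituted and 14.4 and 14.9 FPKM in CBAP-KO. It was called in neither set either, and its intervals ran from -0.26 to 0.14 and from -0.12 to 0.27.

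**Figure D4:**
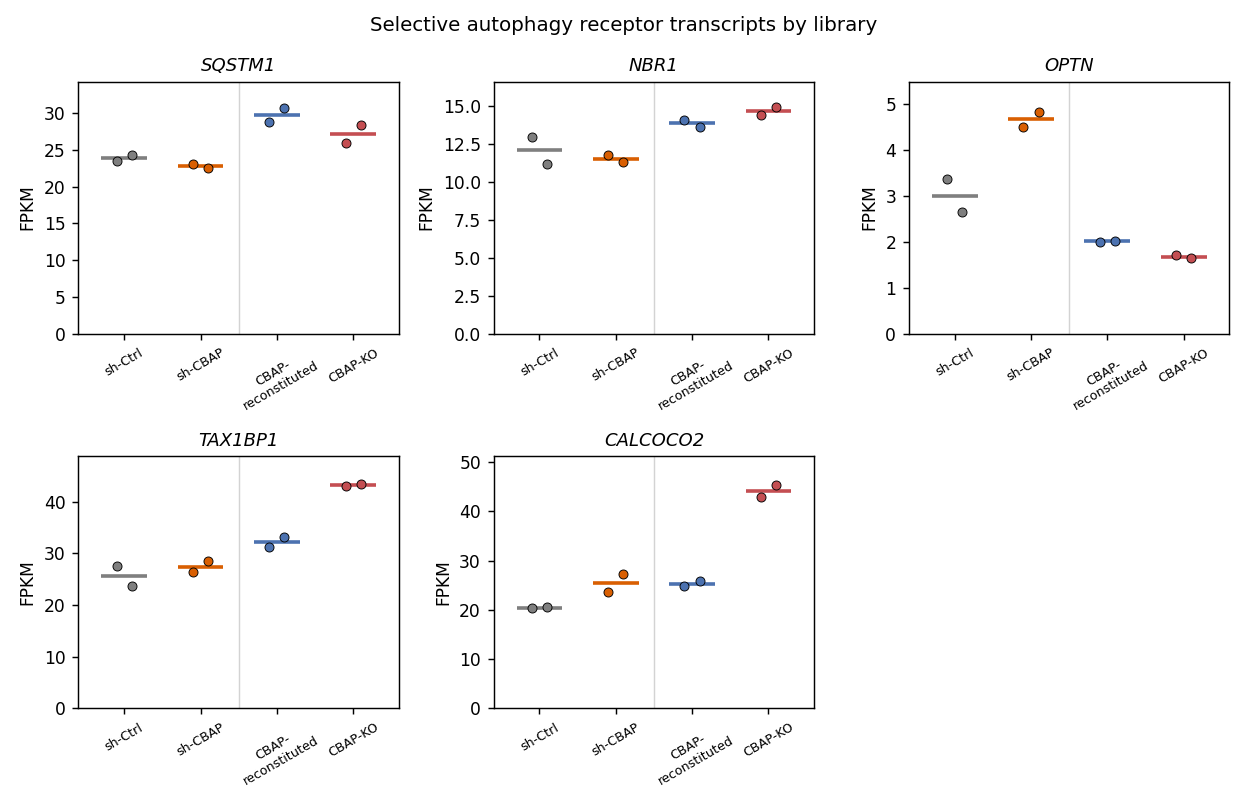
FPKM of the 5 receptors by library, with points for libraries, horizontal bars for means of 2 libraries and a line between the sets. CALCOCO2 and TAX1BP1 are highest in CBAP-KO, at 45.2 and 43.4 FPKM in the higher library of each, and OPTN is highest in sh-CBAP.

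The sets were then compared with each other. A difference of change was called for 14 members, 5 with a higher and 9 with a lower change in the shRNA set, beside 33.8% of all genes tested, 15.5% higher and 18.3% lower. The split became 8 higher and 7 lower by quantile normalization and 9 higher and 7 lower by median ratio. The 3 initiation members were all among the 9, while C12orf44 (ATG101) differed the other way (0.46, limma adjusted p = 0.020). Over 34 members without ATG9A, the changes in the sets had a Pearson r of 0.279 and a Spearman rho of 0.173, given as a description over genes measured in the same libraries. The change had the same sign in both sets for 18 of 35 members. No value over all genes tested stands beside this count or the correlations, so they describe the members only.

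**Figure D5:**
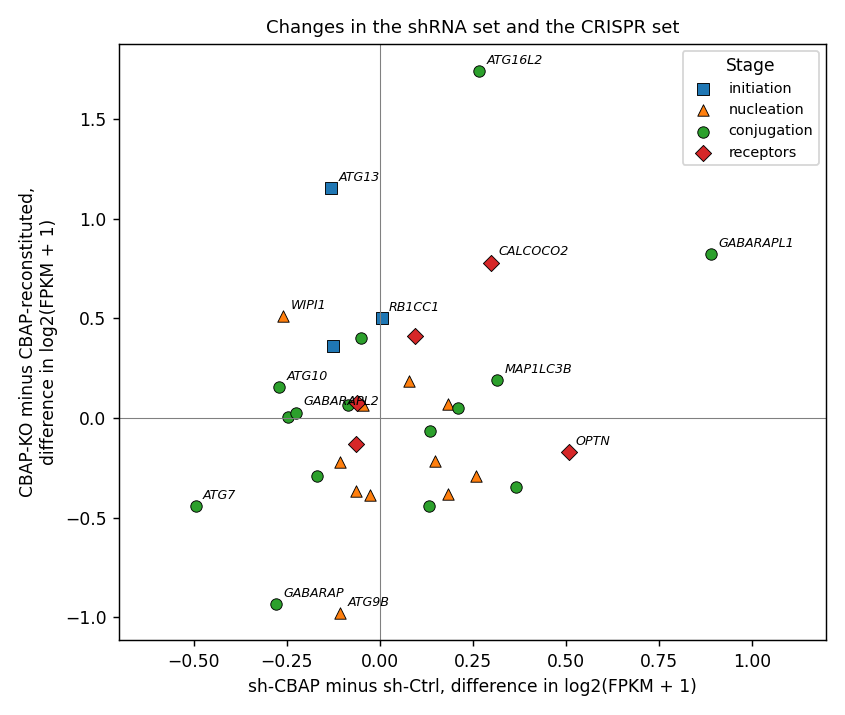
Difference in log2(FPKM + 1) in the shRNA set (horizontal axis) against that in the CRISPR set (vertical axis) for 34 members, with ATG9A left out and the marker shape giving the stage. GABARAPL1 lies at 0.89 and 0.82, ATG13 and ATG16L2 lie high on the vertical axis alone, and the Pearson r over these members is 0.279.

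With both sets in 1 fit and the set as a covariate, 6 members (17.1%) were called between CBAP-deficient and CBAP-expressing cells. This stands beside 12.3% of all genes tested, 3.82% higher and 8.46% lower. GABARAPL1 was higher by 0.86 (limma adjusted p = 0.0034), CALCOCO2 by 0.54 (limma adjusted p = 0.031) and MAP1LC3B by 0.25 (limma adjusted p = 0.032). ATG7 was lower at -0.47 (limma adjusted p = 0.019), GABARAP at -0.61 (limma adjusted p = 0.039) and ATG4D at -0.23 (limma adjusted p = 0.042). For CALCOCO2 and GABARAP a difference of change between the sets was called, so their values here average unlike changes. With rescaled libraries the split was 3 higher and 1 lower. Each of the 6 was lost under 1 or more alternatives.

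Further genes of the pathway were taken from a list of 57, of which 52 were in the table and 50 were tested. In the shRNA set 3 were higher and 8 lower, where 12.3% of all genes tested were called in either direction. The 3 included PRKAG1, listed at 0 in both sh-Ctrl libraries. In CBAP-KO 13 were higher and 10 lower, where 49.9% of all genes were called. BNIP3, a mitophagy receptor, fell in both sets, from 27.97 and 20.2 FPKM in sh-Ctrl to 12.2 and 14.1 FPKM in sh-CBAP and from 12.7 and 12.4 FPKM in CBAP-reconstituted to 7.17 and 8.51 FPKM in CBAP-KO. PINK1, the kinase that starts mitophagy, had log2 changes of -0.69 (limma adjusted p = 0.0031) and -0.19 (limma adjusted p = 0.035). TEX264, a receptor for the endoplasmic reticulum, fell in both sets (-0.52 and -0.32), while RTN3, another such receptor, rose in both (0.27 and 0.27).

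FAM134B, also a receptor for the endoplasmic reticulum, was lower in sh-CBAP (-0.39, limma adjusted p = 0.024) and higher in CBAP-KO (1.86, limma adjusted p = 2.8e-05). NCOA4 and VPS39 were likewise called lower in the shRNA set (-0.21 and -0.29) and higher in the CRISPR set (0.31 and 0.25). FKBP8 and PRKAA1 were called with the set as covariate, at -0.43 and 0.49. Among 9 tested regulators 5 rose in the CRISPR set, namely TFEB, TFE3, PRKAA1, PRKAB1 and PRKAG2, where 23.9% of all genes tested rose. TFEB, a transcription factor for lysosomal and autophagy genes, was named after its values were seen: it was at 2.87 and 2.13 FPKM in CBAP-reconstituted and 5.996 and 6.79 FPKM in CBAP-KO (log2 change 1.08, limma adjusted p = 0.0017). In sh-Ctrl TFEB was at 2.54 and 2.32 FPKM and in sh-CBAP at 2.19 and 2.60 FPKM, so these groups overlapped.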

How the data were processed

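Per the labels and the study's methods, total RNA of 8 Jurkat libraries was sequenced as 100-bp paired-end reads. The authors aligned them to hg19 with TopHat 2 and estimated FPKM with cuffdiff, which they deposited for 13453 genes. The submitters' processing notes name CASAVA 1.8 and Bowtie. The annotation, the scaling of libraries and the strand setting are not given in the sources used here. FPKM hold no counts, so the depth is unknown, and precision rests on 2 libraries per condition.

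From these values log2(FPKM + 1) was computed, which understates changes of low genes. The 11427 genes whose FPKM averaged 1 or more were tested with limma 3.58.1 (R 4.3.3, trended empirical Bayes) in 1 fit of 4 conditions, with Benjamini-Hochberg adjustment at 0.05. On simulated data with 200 of 11427 genes changed by a log2 value of 1 in the sh-CBAP libraries, 82% were recovered with 3 false calls. Every called member changed by less than that in the shRNA set, at most 0.89 for GABARAPL1, so this recovery does not apply to them. Values in every library were given for members called in both sets or with the set as covariate, the 10 called members with the largest change per set, the ATG8 family, the receptors and members listed at 0. ULK1, UVRAG and ATG12 were given by library outside this rule, after their values were seen. Positions and exon overlaps came from GENCODE 44 on GRCh37, in which 19 members share exon bases with a gene of the opposite strand and 2 with a gene of the same strand. Shared sequence came from BLAST+ 2.17.0 and promoters came from RefSeq. Alternatives covered the pseudocount, filter, scaling, trend, replicate block, listed zeros, separate fits and each library left out. Members, lists and tests were chosen with earlier results of these data known.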

Additional observations from a re-analysis of the deposited data

Results flagged for a closer look

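In 14 members the change in the shRNA set differed from that in the CRISPR set by an interaction contrast (limma, Benjamini-Hochberg adjusted p under 0.05 over all genes tested). Taken as the shRNA set less the CRISPR set, the difference was -1.47 for ATG16L2, -1.28 for ATG13, -0.77 for WIPI1, -0.50 for RB1CC1, -0.49 for ULK1 and -0.48 for CALCOCO2. It was -0.45 for ATG12, -0.42 for ATG10 and -0.25 for GABARAPL2. It was 0.87 for ATG9B, 0.68 for OPTN, 0.66 for GABARAP, 0.57 for UVRAG and 0.55 for ATG14. ATG14 was called in neither set by itself. The sets differ in the clones, the vectors and the kind of control cells, and these cannot be told apart.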

How the results depend on the processing

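No called member changed direction under any alternative run. Pseudocount, filter, empirical Bayes trend, rescaling and leaving out genes listed at 0 kept every total of calls within 1.5 times of its value, but not each direction. By quantile normalization and by median ratio, the lower calls went from 4 to 1 in the shRNA set and from 3 to 1 with the covariate, and the higher differences between the sets from 5 to 8 and 9. Each set fitted alone, on 4 libraries in either case, gave 25 CRISPR calls and 0 shRNA calls. In the shRNA set 7 members then had an unadjusted p under 0.05. Fitting CBAP status with no covariate called 0 members, with 8 at an unadjusted p under 0.05. Replicate numbers were shared by the labels but only 2 pairs exist per set, and same-numbered libraries had correlated deviations of 0.146 and 0.0239, so the numbers were not taken as pairs. With a replicate block 0 members were called in the shRNA set and 0 with the set as covariate (8 at an unadjusted p under 0.05 in each), 5 for a difference between the sets and 15 in the CRISPR set. Leaving out 1 library gave 1 to 10 calls in the shRNA set, 8 to 21 in the CRISPR set, 5 to 18 for the difference and 1 to 7 with the covariate, the lone library left being assumed to vary like the others. The shRNA set had 2 calls without either sh-Ctrl library and 1 without any CRISPR-set library, although none of these last enters its contrast. The CRISPR set had 8 without CBAP-reconstituted replicate 1 and 12 without CBAP-reconstituted replicate 2 or either CBAP-KO library. The difference had 5 without any CRISPR-set library. The covariate fit had 2 without sh-Ctrl replicate 2 and 1 without any CRISPR-set library. The CRISPR-set libraries do enter the p-values of the shRNA set, through the spread pooled over all conditions. Why these counts moved was not tested. Leaving out sh-CBAP replicate 2 moved the median of all genes in the shRNA set to -0.118. All alternatives kept 0 of 7 shRNA calls, 7 of 19 CRISPR calls, 5 of 14 differences and 0 of 6 covariate calls. Leaving ATG9A out, which was chosen after seeing the data, gave medians of -0.036, 0.040 and 0.0087 in the shRNA set, the CRISPR set and the covariate fit.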
